A study of Rattus norvegicus with 6 samples.

Results

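The genes described here encode interferons and the chains of their receptors in INS-1, a rat insulinoma cell line that secretes insulin. They were taken from the deposited table by symbol, namely the ligand genes Ifnb1, Ifnl1 and Ifnl3 and the receptor genes Ifnar1, Ifnar2, Ifngr1, Ifngr2, Ifnlr1 and Il10rb. All 9 were found, in 13 transcript rows, among 21553 genes of the table. RNA was sequenced from INS-SMA cells (n = 3), in which a lentivirus expresses alpha smooth muscle actin (genotype given as SMA overexpression), and from INS-MOCK cells (n = 3), whose genotype is given as wild type. All were INS-1 cells at passages 7 to 15 in medium with serum. The labels do not say whether INS-MOCK cells received an empty lentivirus, nor how many clones or transductions the INS-SMA cultures stand for, so effects of the vector and of the actin cannot be told apart. The series calls the libraries of a group biological replicates.

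Interferons are secreted proteins that cells release when they sense foreign nucleic acid, and that put the cell itself and its neighbours into an antiviral state. Type I interferons (interferon beta and the alpha family) bind a receptor made of IFNAR1 and IFNAR2. Type III interferons (interferon lambda) bind IFNLR1 paired with IL10RB, a chain shared with interleukin-10 family receptors. Interferon gamma, the type II interferon of lymphocytes, binds IFNGR1, which pairs with IFNGR2. All of these receptors signal through JAK kinases and STAT factors. In pancreatic beta cells interferons are known for raising antigen presentation, and they are studied in type 1 diabetes.

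The INS-SMA libraries held 24719503 to 39608609 counts and the INS-MOCK libraries 34471794 to 37466920. The human ACTA2 sequence (alpha smooth muscle actin) in the table had 941093 to 1141322 counts in INS-SMA libraries and 103 to 167 in INS-MOCK libraries. Beta cell markers were found in both groups, 9 of 10 being in the table, but 7 of the 9 fell. Their summed level was 3227 to 4317 CPM (counts scaled to library size) in INS-SMA against 32880 to 35840 CPM in INS-MOCK. Most of the sum in INS-MOCK was Ins1, which averaged 1505 CPM in INS-SMA and 22960 CPM in INS-MOCK. Pdx1 (log2 fold change -1.06) and Neurod1 (-1.32) fell less than Ins1 (-3.93). Slc2a2 and Iapp did not pass the test given next, Iapp having 28, 256 and 30 counts in INS-SMA and 29, 22 and 18 in INS-MOCK. Across the 13363 tested genes, edgeR's quasi-likelihood test with a threshold of 0.05 on the adjusted p called 55.1% in either direction (28.1% higher and 27% lower in INS-SMA), so a call is common in this comparison. The groups did not overlap in 65.3%. Among 5 fibroblast markers Pdgfra fell to 8.24 ± 0.17 CPM in INS-SMA, against 15.3 ± 1.77 CPM in INS-MOCK (SD, n = 3 each), while Col1a1 had 26, 3 and 13 counts in INS-SMA and 4, 0 and 0 in INS-MOCK. Lum (5, 10 and 12 counts), Dcn (7, 2 and 8) and Col1a2 (2, 2 and 0) were detected in INS-SMA and had 0 counts in INS-MOCK. Summed fibroblast markers, mostly Pdgfra, were at 9.09 to 10.4 CPM in INS-SMA and 13.6 to 16.9 CPM in INS-MOCK, and summed endothelial markers at 0.817 to 1.29 CPM in INS-SMA and 1.45 to 2.69 CPM in INS-MOCK.

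The promoter windows of the ligand genes are shown because these genes were without a single count in INS-MOCK and moved together. They are RefSeq windows of the GRCr8 build, from 250 bases before to 50 bases after the annotated start of each gene, read on the gene's strand. Capitals mark matches to an interferon regulatory factor (IRF) motif, AANNGAAA, and to an NF-kappaB motif, GGNNNTTCC, searched on both strands. RefSeq puts Ifnl1 and Ifnl3 on the strands opposite to those in the deposited table, whose coordinates are of another build. Their order along chromosome 1 is reversed as well. Windows were matched by symbol, so either lambda window may belong to the gene counted under the other name.
Ifnb1 (chr5:108067438-108067737, minus strand): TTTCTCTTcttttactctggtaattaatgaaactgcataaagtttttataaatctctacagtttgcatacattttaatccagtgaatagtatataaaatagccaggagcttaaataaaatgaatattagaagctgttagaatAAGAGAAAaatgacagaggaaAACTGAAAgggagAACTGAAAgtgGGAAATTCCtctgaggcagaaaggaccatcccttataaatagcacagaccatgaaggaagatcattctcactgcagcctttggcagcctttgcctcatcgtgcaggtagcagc
Ifnl1 (chr1:92927781-92928080, minus strand): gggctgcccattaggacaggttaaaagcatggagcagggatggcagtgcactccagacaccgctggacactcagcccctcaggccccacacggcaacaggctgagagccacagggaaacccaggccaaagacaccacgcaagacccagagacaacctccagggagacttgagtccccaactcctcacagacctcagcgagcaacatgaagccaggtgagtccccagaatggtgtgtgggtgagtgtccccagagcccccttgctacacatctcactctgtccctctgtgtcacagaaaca
Ifnl3 (chr1:92941738-92942037, plus strand): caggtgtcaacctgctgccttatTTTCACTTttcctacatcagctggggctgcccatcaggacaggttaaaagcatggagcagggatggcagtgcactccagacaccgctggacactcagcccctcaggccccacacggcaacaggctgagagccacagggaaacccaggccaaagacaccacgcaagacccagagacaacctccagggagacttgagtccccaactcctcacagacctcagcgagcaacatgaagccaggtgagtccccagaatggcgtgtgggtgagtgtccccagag

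The Ifnb1 window held the IRF motif at 4 places, starting 250, 108, 87 and 74 bases before the gene's start. The NF-kappaB motif began 63 bases before the start, where GGAAATTCC matches on both strands, and the nearest TATAAA began 30 bases before it. None of these IRF and NF-kappaB matches overlapped. In human and mouse the stretch just upstream of the interferon beta gene is known as a virus-inducible enhancer that IRF factors and NF-kappaB bind. Of 33469 rat windows of the same length, 26.4% held the IRF motif, 18.3% the NF-kappaB motif, 14.2% TATAAA and 4.68% both of the first pair. At least 4 places with the IRF motif together with an NF-kappaB motif were found in 23 windows (0.0687%), that of Ifnb1 among them. This cut equals what the Ifnb1 window holds, so its place among the 23 was fixed in advance. The Ifnl3 window held 1 IRF match, in its first 46 bases, which the Ifnl1 window does not reach. Over the 254 bases that both windows cover, Ifnl1 and Ifnl3 differed at 2 positions (99.2% identical). The annotated start of Ifnl1 thus lies 46 bases further along the shared sequence than that of Ifnl3. The Ifnl3 start falls on the letters ATG, and the same ATG comes before the Ifnl1 start. Either window may therefore hold less of the promoter than its length implies. The lack of a match in the Ifnl1 window says nothing about bases further upstream. The transcribed sequences beyond these windows were not compared, and how reads were divided between Ifnl1 and Ifnl3 is uncertain. Among the receptor genes, windows with the IRF motif were those of Ifnlr1 and Il10rb, and windows with the NF-kappaB motif those of Ifnar1 (just after its start), Ifngr2 and Il10rb. The motif TTCNNNGAA, which STAT factors bind and which 8.9% of windows held, was found for Ifnar2 and Il10rb, overlapping the NF-kappaB match in Il10rb. The Ifngr1 window held none of the 4 motifs. These are matches of letters and not measured binding sites.

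All 3 ligand genes were present in every INS-SMA library and had 0 counts in every INS-MOCK library. Ifnb1, which encodes interferon beta (ENSRNOG00000006268, chromosome 5, 106865192 to 106865746, minus strand), had 156, 167 and 258 counts in INS-SMA. That is 9.02 ± 1.22 CPM in INS-SMA (SD, n = 3) against 0 in INS-MOCK, at least 70.0-fold higher when INS-MOCK is set to a floor of 3 counts per library (edgeR adjusted p = 2.37e-04). Ifnl1, which encodes a type III interferon (ENSRNOG00000056251, chromosome 1, 85252103 to 85253635, plus strand), had 904, 1214 and 1456 counts in INS-SMA. Its normalised level spanned 54.3 to 56.6 CPM there, so the INS-SMA libraries nearly coincide, at least 431-fold above the INS-MOCK floor (edgeR adjusted p = 1.87e-05). Ifnl3, the other lambda gene (ENSRNOG00000026584, chromosome 1, 85236243 to 85237775, minus strand), had 813, 1051 and 1006 counts in INS-SMA. It was at 48.8, 48.2 and 39.1 CPM in INS-SMA replicates 1, 2 and 3, at least 352-fold above the floor (edgeR adjusted p = 5.70e-05). Replicate 3 was the lowest for Ifnl3 and the highest for Ifnl1 and Ifnb1. The ratio of Ifnl1 to Ifnl3 counts was accordingly 1.11, 1.16 and 1.45 in the INS-SMA replicates 1, 2 and 3. The ligand genes passed the low-count filter through INS-SMA alone, so their passing the test adds nothing beyond the counts themselves. The floors cover counting error only.

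**Figure D1:**
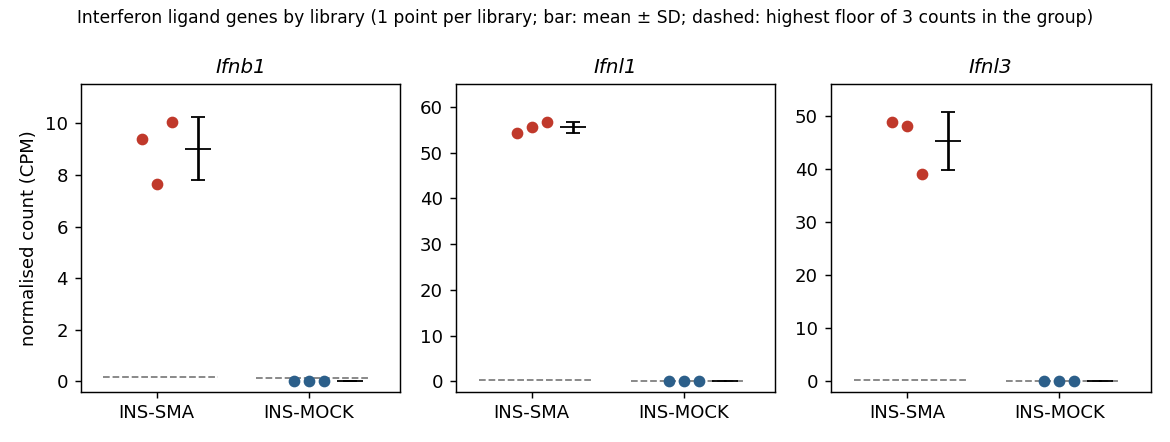
Normalised counts (CPM, linear axis) of the ligand genes Ifnb1, Ifnl1 and Ifnl3 in INS-SMA (red) and INS-MOCK (blue), 1 point per library with mean ± SD (n = 3). INS-SMA libraries lie between 7.66 and 10.0 CPM for Ifnb1, 54.3 and 56.6 CPM for Ifnl1 and 39.1 and 48.8 CPM for Ifnl3, while every INS-MOCK library is at 0, under the dashed floor.

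Other interferon genes were sparse in both groups. Among 4 further genes with an interferon symbol, Ifna4 had 1, 3 and 5 counts in INS-SMA, Ifna11 had 3, 2 and 0, and Ifna16l1 had 1, 0 and 0, each against 0 in INS-MOCK. Ifne, the interferon epsilon gene, had 0 counts in INS-SMA and 2 in INS-MOCK, both in replicate 3. None of these 4 passed the low-count filter, and no test was made. A search of the gene descriptions, made after values had been seen, added RGD1560539, LOC100912314 and AABR07049128.1, all described as interferon alpha genes. Of these, RGD1560539 (chromosome 5, 87354042 to 87354596, plus strand) had 49, 62 and 86 counts in INS-SMA and 0 in INS-MOCK, at least 23.6-fold higher. It too passed the low-count filter through INS-SMA alone, and no test is given for it. The 6 alpha genes together had 60, 76 and 93 counts in INS-SMA and 0 in INS-MOCK, most of them in RGD1560539. Members of the alpha family are near copies of each other, so the gene to which their reads belong is uncertain. Ifnb1 and RGD1560539 have the same span of 555 bases in the table, which allows a comparison of levels per length within INS-SMA. Ifnb1 was at 16.9, 13.8 and 18.1 CPM per kilobase and RGD1560539 at 5.30, 5.13 and 6.03 CPM per kilobase, so interferon beta was the higher of the pair in each INS-SMA library. The gene of interferon gamma itself is not analysed here.

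Interferon genes are also expressed by immune cells, and markers of these cells were therefore examined. Of 10 macrophage and dendritic cell markers 7 were in the table and 5 were tested. Of these 2 rose (Cd74 and Ptprc), where 28.1% of all tested genes were called higher. The summed level of the markers was 83.5 to 88.4 CPM in INS-SMA against 0.743 to 2.65 CPM in INS-MOCK. Nearly all of it was Cd74, the invariant chain of MHC class II molecules, at 82.0 ± 2.09 CPM in INS-SMA and 0.173 ± 0.20 CPM in INS-MOCK (SD, n = 3 each). Ptprc (CD45, a marker of leukocytes) had 31, 34 and 29 counts in INS-SMA and 0 in INS-MOCK. It passed the low-count filter through INS-SMA alone, so its call adds nothing beyond the counts. Cd14 and Aif1 had at most 2 counts in any library, Cd68 averaged 0.315 CPM in INS-SMA and 0.568 CPM in INS-MOCK, and Csf1r averaged 1.09 and 0.925 CPM in INS-SMA and INS-MOCK. Adgre1 (F4/80, a macrophage marker in mouse) had 21, 21 and 20 counts in INS-SMA and 0, 7 and 0 in INS-MOCK, which do not overlap. It missed the threshold with all libraries (log2 fold change 3.22, edgeR adjusted p = 0.0665) and passed without INS-MOCK replicate 2 (0.00477). Of 6 lymphocyte markers 1, Cd8a, was in the table, with 2 counts in 1 INS-SMA library. The part of such cells in the ligand counts was not tested. Fewer cells making a transcript and less of it per cell cannot be told apart in these bulk libraries.

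Among the 6 receptor chains, 2 rose (Ifngr1 and Ifngr2), 2 fell (Ifnlr1 and Il10rb) and 2 did not pass (Ifnar1 and Ifnar2), in a comparison in which 55.1% of all tested genes passed. Both chains for interferon gamma were thus higher and both chains for interferon lambda lower in INS-SMA, and neither chain for type I interferon passed. The groups did not overlap for the same 4 of 6 chains, a share close to the 65.3% of all tested genes. All 6 were expressed in every library, and their level in INS-SMA was 0.565 to 2.02 times that in INS-MOCK, unlike the ligand genes. Beta cell markers fell in the same libraries (summed level of 3227 to 4317 CPM in INS-SMA and 32880 to 35840 CPM in INS-MOCK), and the part of that change in the receptor results was not tested.

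Ifngr1 encodes the ligand-binding chain for interferon gamma (ENSRNOG00000012074, chromosome 1, 15062432 to 15080907, plus strand). It was at 165, 175 and 165 CPM in INS-SMA and at 82.3, 83.6 and 83.6 CPM in INS-MOCK. Every INS-SMA library was far above every INS-MOCK library, and the log2 fold change was 1.02 with an SE of 0.04 (edgeR adjusted p = 1.65e-05). Ifngr2, its signalling partner (ENSRNOG00000002032, chromosome 11, 31694339 to 31712611, plus strand), was at 76.9, 85.3 and 81.0 CPM in INS-SMA and 65.6, 67.6 and 65.3 CPM in INS-MOCK. The groups were close but did not overlap, and the log2 fold change was 0.29 (SE 0.05, edgeR adjusted p = 0.00543). As a single transcript row tested among all rows, Ifngr2 missed the threshold (edgeR adjusted p = 0.0503, where the alternatives gave 2.55e-08 to 0.0503). The ratio of Ifngr1 to Ifngr2 counts, which does not depend on how libraries are scaled, was 2.14, 2.06 and 2.04 in INS-SMA and 1.25, 1.24 and 1.28 in INS-MOCK. The balance of the pair was thus shifted towards Ifngr1 in all INS-SMA libraries.

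Ifnlr1 encodes the chain specific to interferon lambda (ENSRNOG00000033984, chromosome 5, 154037202 to 154058880, plus strand). It was at 12.0, 13.6 and 14.9 CPM in INS-SMA and 25.6, 23.5 and 22.6 CPM in INS-MOCK. The level in INS-SMA was 0.565 times that in INS-MOCK, with no overlap (log2 fold change -0.82, SE 0.12, edgeR adjusted p = 0.00219). Il10rb, its partner (ENSRNOG00000028638, chromosome 11, 31560530 to 31582457, plus strand), was at 11.1, 11.7 and 10.6 CPM in INS-SMA and 18.0, 15.7 and 15.5 CPM in INS-MOCK. It too was lower in each INS-SMA library than in any INS-MOCK library (log2 fold change -0.56, SE 0.12, edgeR adjusted p = 0.00893). The ratio of Ifnlr1 to Il10rb counts was 1.08, 1.16 and 1.40 in INS-SMA and 1.43, 1.50 and 1.45 in INS-MOCK, so both chains were reduced with a small shift towards Il10rb.

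Ifnar1 encodes the low-affinity chain of the type I receptor (ENSRNOG00000028594, chromosome 11, 31640407 to 31664061, plus strand). It was at 59.0, 67.9 and 63.0 CPM in INS-SMA and 84.6, 47.6 and 79.2 CPM in INS-MOCK. INS-MOCK replicate 2 was below and the other INS-MOCK libraries were above all INS-SMA libraries, and the log2 fold change of -0.16 (SE 0.22) did not pass (edgeR adjusted p = 0.60). This result rests on single INS-MOCK libraries. Without INS-MOCK replicate 2 the log2 fold change was -0.37 and passed (edgeR adjusted p = 0.0149), whereas without INS-MOCK replicate 1 it was 0.0013, and adjusted p-values ranged from 0.0149 to 0.997 over all alternatives. Ifnar2, the high-affinity chain (ENSRNOG00000045668, chromosome 11, 31539016 to 31558851, plus strand), was at 21.0, 27.3 and 21.0 CPM in INS-SMA and 12.8, 23.6 and 21.8 CPM in INS-MOCK. The groups overlapped, with INS-MOCK replicate 1 well below the rest (log2 fold change 0.25, SE 0.26, edgeR adjusted p = 0.47). Relative to the mean, the spread within INS-MOCK was larger for these chains than for any other receptor chain, and the ratio of Ifnar1 to Ifnar2 counts was 2.81, 2.49 and 3.00 in INS-SMA and 6.63, 2.02 and 3.62 in INS-MOCK.

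**Figure D2:**
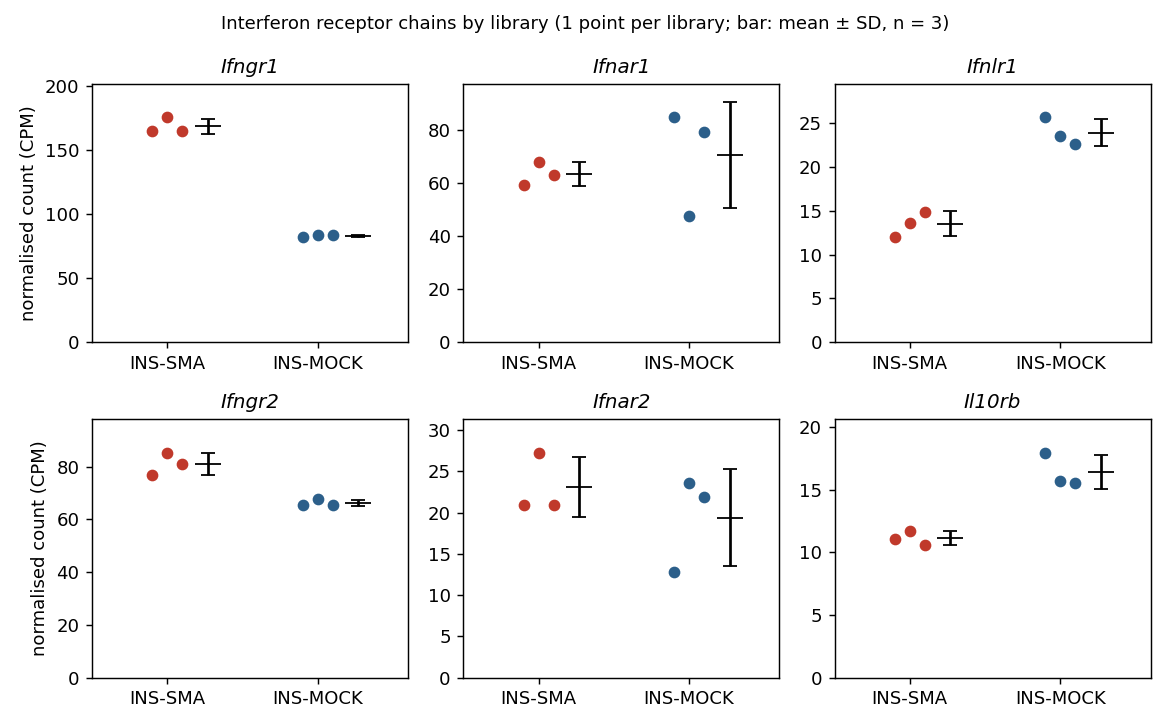
Normalised counts (CPM, linear axes starting at 0) of the 6 receptor chains in INS-SMA (red) and INS-MOCK (blue), 1 point per library with mean ± SD (n = 3), 1 receptor per column. Ifngr1 and Ifngr2 are higher and Ifnlr1 and Il10rb lower in every INS-SMA library than in any INS-MOCK library, and Ifnar1 and Ifnar2 overlap between groups.

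Changes in how the counts were processed left the 4 passing chains in their direction. The log2 fold change of Ifngr1 lay between 0.85 and 1.04 over 15 alternatives, that of Ifngr2 between 0.25 and 0.33, that of Ifnlr1 between -0.90 and -0.74 and that of Il10rb between -0.81 and -0.48. The lowest values of Ifngr1 and Il10rb came from their most abundant transcript row taken alone.

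**Figure D3:**
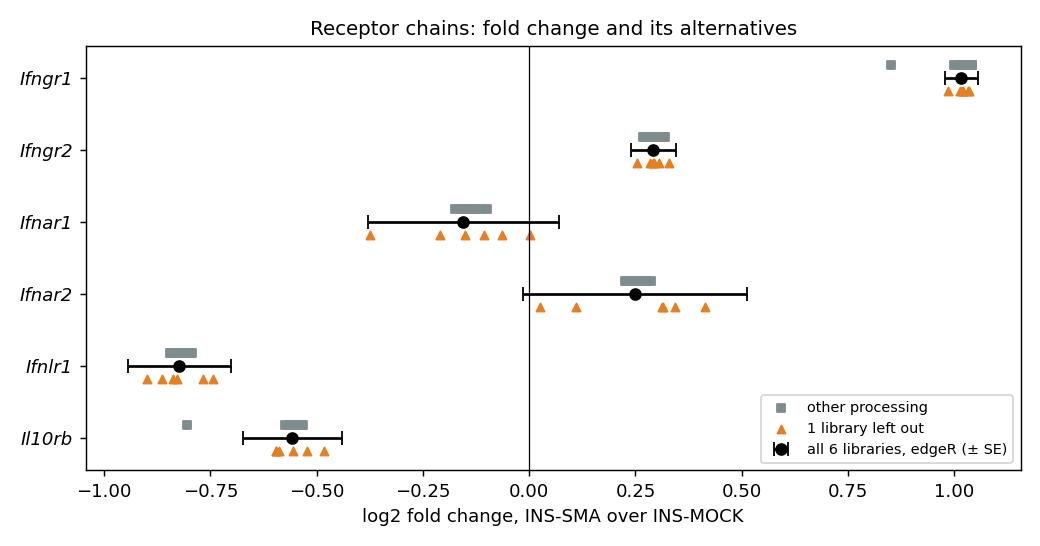
Log2 fold changes of INS-SMA over INS-MOCK for the 6 receptor chains: all 6 libraries by edgeR (black, ± SE), other processing (grey squares) and 1 library left out (orange triangles). Points of Ifngr1, Ifngr2, Ifnlr1 and Il10rb stay on their side of 0, and those of Ifnar1 reach 0.0013 when INS-MOCK replicate 1 is left out.

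Counts of 3 receptor genes came from several transcript rows, and how reads fell among these rows varied between libraries of a group. For Il10rb the row with an Ensembl transcript identifier held 131, 186 and 77 counts in INS-SMA and 223, 295 and 255 in INS-MOCK. Its share of the gene was 70.8%, 72.9% and 28.2% in INS-SMA and 51.3%, 84.0% and 70.2% in INS-MOCK. The least abundant of its rows held 27 and 71 counts in INS-SMA replicates 1 and 3, and 0 counts in INS-SMA replicate 2 and in every INS-MOCK library. That Ensembl row alone did not pass (log2 fold change -0.81, SE 0.45, edgeR adjusted p = 0.257), so the fall of Il10rb rests on the sum of its rows. For Ifngr1 the row with an Ensembl transcript identifier rose, with a log2 fold change and SE of 0.85 ± 0.10 (edgeR adjusted p = 0.00262), and so did its other row, with 1.72 (SE 0.42, adjusted p = 0.0321). That other row held 18.3%, 17.6% and 26.4% of the gene in INS-SMA and 10.9%, 7.18% and 19.4% in INS-MOCK, which overlap. For Ifnar1 the most abundant row held 658, 1355 and 1304 counts in INS-SMA and 1645, 643 and 1498 in INS-MOCK, so the low INS-MOCK replicate 2 is a feature of that row. Its other row held 324, 124 and 315 counts in INS-SMA and 404, 419 and 354 in INS-MOCK, where replicate 2 was not low.

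**Figure D4:**
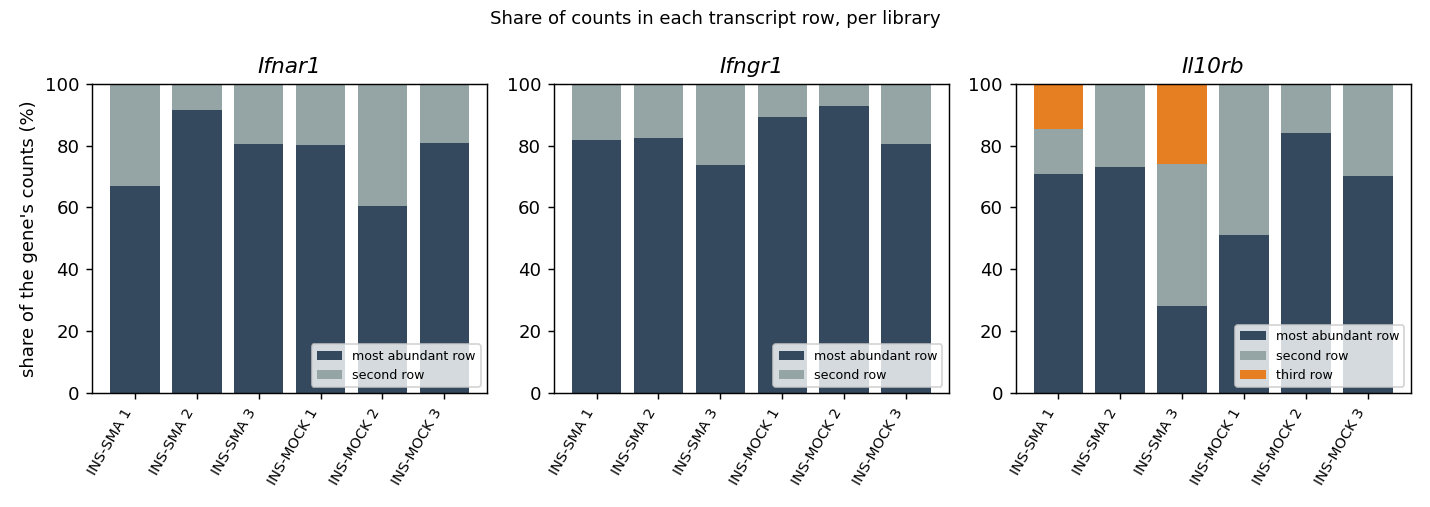
Share of each gene's counts (%) in its transcript rows, in each INS-SMA and INS-MOCK library, for Ifnar1, Ifngr1 and Il10rb (dark blue the most abundant row, grey the second, orange the last). The most abundant row of Il10rb falls to 28.2% in INS-SMA replicate 3, and that of Ifnar1 to 60.5% in INS-MOCK replicate 2.

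Genes of the same receptor family lie next to the members. Ifnar2, Il10rb, Ifnar1 and Ifngr2 follow each other on the plus strand of chromosome 11 within 173.6 kb (31539016 to 31712611 in the deposited table). Ifnar2 and Il10rb are 1.7 kb apart. Il10rb fell (log2 fold change -0.56), whereas Ifnar2 did not pass (0.25, SE 0.26, edgeR adjusted p = 0.47), so the sign of Ifnar2 is not settled. Tmem50b, 6.8 kb beyond Ifngr2 on the other strand, did not pass (log2 fold change -0.59, edgeR adjusted p = 0.32), with 65.4 ± 1.75 CPM in INS-SMA and 98.1 ± 64.8 CPM in INS-MOCK. Next to Ifngr1, at 12.7 kb, is Il22ra2, which encodes a soluble decoy receptor for interleukin-22. It had 8, 28 and 11 counts in INS-SMA and 4, 0 and 0 in INS-MOCK, and rose (edgeR adjusted p = 0.0437). That call was lost, with adjusted p-values of 0.0685 to 0.127, on leaving out any library other than INS-MOCK replicate 1. Next to Ifnlr1, at 19.1 kb, is Il22ra1, the interleukin-22 receptor chain, with 10, 26 and 11 counts in INS-SMA and 0, 0 and 7 in INS-MOCK (edgeR adjusted p = 0.11, but 0.0161 without INS-MOCK replicate 3). Ifnl1 and Ifnl3 lie 14.3 kb apart. Their closest other neighbours had counts in both groups. Pak4, a kinase gene 34.5 kb from Ifnl3, rose with a log2 fold change of 0.78, and Lrfn1, 37.8 kb from Ifnl1, did not pass (0.71, edgeR adjusted p = 0.39). No named gene of the table lay within 50 kb of Ifnb1.

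Of 11 interleukin-10 family ligands and further class II cytokine receptors, 8 were in the table and 4 were tested. Besides Il22ra2, F3 passed. It encodes tissue factor, a receptor of this family that starts blood clotting, and it fell to 0.598 ± 0.091 CPM in INS-SMA, against 5.54 ± 0.33 CPM in INS-MOCK (SD, n = 3 each; log2 fold change -3.20, SE 0.22, edgeR adjusted p = 1.12e-04). Il20ra did not pass (log2 fold change -0.01). Il10, Il20 and Il10ra had at most 2 counts in any library.

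Genes that switch on interferon genes rose in 11 of 20 cases, where 28.1% of all tested genes were called higher. Whether they rose before or after the ligand genes was not tested. Of 26 sensors, adaptors and transcription factors, 23 were in the table and 20 were tested. Of these 11 rose and 1 (Myd88) fell, with a median log2 fold change of 2.04 where that of all tested genes was 0.03. The median stayed at 2.04 with the 3 genes at 0 in INS-MOCK put at their lower bound. These 3, Ikbke, Tlr3 and Zbp1, are among the 11. They passed the low-count filter through INS-SMA alone, so their calls add nothing beyond the counts. Ikbke, a kinase that activates IRF factors, had 244, 361 and 352 counts in INS-SMA and 0 in INS-MOCK, at least 116-fold higher. Irf7, the factor known for amplifying type I interferon genes, had 5144, 1222 and 4726 counts in INS-SMA and 257, 169 and 184 in INS-MOCK. It rose (edgeR adjusted p = 0.00272), though INS-SMA replicate 2 was well below the other INS-SMA libraries. Irf1 was at 390 ± 2.10 CPM in INS-SMA and 34.6 ± 6.38 CPM in INS-MOCK, and Jun at 148 ± 8.54 CPM in INS-SMA and 24.8 ± 1.24 CPM in INS-MOCK. The NF-kappaB subunit gene Rela rose with a log2 fold change of 0.73, and Tmem173, which encodes the DNA-sensing adaptor STING, with 1.14. Tlr3 and Zbp1, sensors of nucleic acid, both had 0 counts in INS-MOCK. Tlr3 was at least 10.1-fold and Zbp1 at least 25.6-fold higher. Irf5, Atf2 and Traf6 rose too. Some of these calls rested on single libraries. Myd88 lost its call on leaving out any library other than INS-SMA replicate 1 (edgeR adjusted p up to 0.145) and Irf5 on leaving out any other than INS-SMA replicate 2 (up to 0.0986). Atf2 lost it without INS-SMA replicate 1, INS-SMA replicate 3 or INS-MOCK replicate 3 (up to 0.0614). The RNA sensor genes Ifih1 (46.6 ± 5.56 CPM in INS-SMA and 11.1 ± 14.8 CPM in INS-MOCK) and Ddx58 (11.9 ± 17.8 and 2.21 ± 3.83 CPM in INS-SMA and INS-MOCK) did not pass, and neither did Tbk1, Mavs or Irf3. Nfkb1, the gene of another NF-kappaB subunit, did not pass either (edgeR adjusted p = 0.14). It had 15, 0 and 733 counts in INS-SMA and 0, 0 and 14 in INS-MOCK. Traf3 and Dhx58 did not pass. Without INS-MOCK replicate 1, Ifih1 (edgeR adjusted p = 0.00418) and Dhx58 (0.021) passed.

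Among genes downstream of the receptors, Jak2 and Stat2 rose. Jak2, the kinase bound to IFNGR2, was at 367 ± 12.3 CPM in INS-SMA and 135 ± 5.68 CPM in INS-MOCK (log2 fold change 1.44, edgeR adjusted p = 1.07e-05). Stat2, a factor that type I and type III receptors activate, was at 685 ± 5.94 CPM in INS-SMA and 48.2 ± 18.0 CPM in INS-MOCK (log2 fold change 3.83, edgeR adjusted p = 1.43e-04). Jak1, Tyk2, Stat3 and Irf9 did not pass. Jak1 varied from 0 to 1092 counts among INS-SMA libraries and from 0 to 1331 among INS-MOCK libraries, and Irf9 had 21, 56 and 65 counts in INS-SMA and 507, 3 and 181 in INS-MOCK. Tyk2 passed without INS-MOCK replicate 1 (edgeR adjusted p = 0.00802) and Irf9 without INS-MOCK replicate 2 (0.0156), whereas Jak1 and Stat3 did not pass with any 1 library left out. Counts in rows with no gene name are not part of such values.

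Of 10 tested inhibitors of receptor signalling 3 rose and 3 fell (median -0.60), close to the background of 28.1% of all tested genes higher and 27% lower. Usp18, which blocks signalling at IFNAR2, had 13022, 18178 and 22428 counts in INS-SMA and 1138, 70 and 67 in INS-MOCK (log2 fold change 5.55, SE 1.33, edgeR adjusted p = 0.0152). With 1 library left out its log2 fold change was 5.04 to 8.11, highest without INS-MOCK replicate 1. Ptpn2, a phosphatase that acts on JAK and STAT proteins, rose with a log2 fold change of 2.61 and Pias4 with 0.93. Cish, a cytokine-induced inhibitor, fell to 64.1 ± 2.87 CPM in INS-SMA, against 341 ± 11.1 CPM in INS-MOCK (log2 fold change -2.41, edgeR adjusted p = 4.09e-06), and Socs3 (-0.72) and Ptpn11 (-0.16) fell as well. The call for Socs3 was lost without INS-MOCK replicate 2 or 3 (edgeR adjusted p = 0.0601 and 0.0609) and that for Ptpn11 without INS-SMA replicate 1 or 2 (0.0539 and 0.0627). Socs1 had 16, 8 and 28 counts in INS-SMA and 41, 24 and 14 in INS-MOCK and did not pass. Neither did Ptpn1, Ptpn6 and Pias1, although Ptpn1 passed without INS-MOCK replicate 2 (edgeR adjusted p = 0.0421), Ptpn6 without INS-SMA replicate 3 (0.00152) and Pias1 without INS-MOCK replicate 3 (0.0198).

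Most interferon-induced genes rose. Of 20 genes 18 were tested, 14 rose (28.1% of all tested genes were called higher) and 0 fell, with a median log2 fold change of 6.77, or 6.48 when the 2 genes without a count in INS-MOCK are put at their lower bound. Their summed level was 12970, 13180 and 13730 CPM in INS-SMA and 589.9, 390.1 and 386.8 CPM in INS-MOCK replicates 1, 2 and 3. INS-MOCK replicate 1 was thus the highest of its group, with 2454 counts of Mx2 (12 and 0 in INS-MOCK replicates 2 and 3), 550 of Oas1a (34 and 0) and 106 of Ifit1 (8 and 4). In that library Ifnb1, Ifnl1 and Ifnl3 had 0 counts, as in the rest of INS-MOCK. Cxcl10, a chemokine that attracts T cells, passed with the smallest adjusted p of the list (log2 fold change 7.66, edgeR adjusted p = 2.99e-06), and B2m, the light chain of MHC class I, rose with a log2 fold change of 2.37. Neither Ifit2 nor Mx1 had a count in INS-MOCK. Both are among the 14 and passed the low-count filter through INS-SMA alone, so their calls add nothing beyond the counts. Ifit2 was at least 204-fold higher and Mx1 at least 12.6-fold. Mx2, Oas1a, Oas2 and Isg20 did not pass, and each varied widely among INS-MOCK libraries. All 4 passed without INS-MOCK replicate 1 (edgeR adjusted p = 1.5e-04 to 0.00873), and Isg20 differed from the others in having 0 counts in that replicate.

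**Figure D5:**
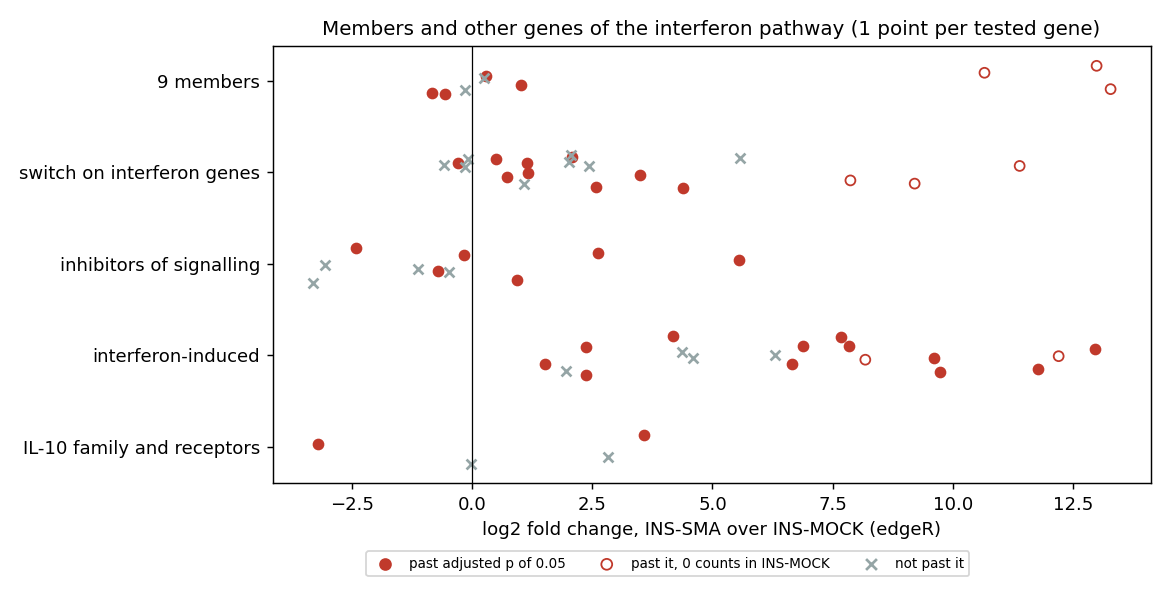
Log2 fold changes (INS-SMA over INS-MOCK, edgeR) of the 9 genes and of 4 lists of other pathway genes, 1 point per tested gene; filled circles passed an adjusted p of 0.05, open circles passed with 0 counts in INS-MOCK, crosses did not pass. The ligand genes are the open circles at the right of the top line, and the receptor chains lie between -0.82 and 1.02.

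The genes with the most similar pattern were found by the root mean square (RMS) difference of log2(CPM + 1) over the 6 libraries, each gene centred on its own mean. Closest to Ifnb1 were Ppp1r15a (RMS difference 0.07), a phosphatase subunit gene of the stress response, Insc (0.09) and Relt (0.11), a TNF receptor family gene. Closest to Ifnl1 were the stress-induced transcription factor gene Atf3 (0.09), the kinase gene Plk2 (0.13) and Il23a (0.17), which encodes a subunit of interleukin-23. Il23a (0.14) and Atf3 (0.16) were also the closest to Ifnl3, followed by Dpy19l2 (0.17). Of these, Insc had 0 counts in INS-MOCK like the ligand genes, whereas Ppp1r15a averaged 328 CPM in INS-SMA and 34.0 CPM in INS-MOCK, and Atf3 averaged 630 CPM in INS-SMA and 10.6 CPM in INS-MOCK. Among receptor chains the nearest genes were LOC103689940 to Ifngr1 (0.03), Eprs to Ifngr2 (0.02), Cabp7 to Ifnlr1 (0.03), Ltbp3 to Il10rb (0.03), Ly6g5b to Ifnar1 (0.09) and Alkbh3 to Ifnar2 (0.10). With 6 libraries in 2 groups many genes share a pattern, and the added 1 CPM flattens genes of low level. LOC103689940 averaged 1.02 CPM in INS-SMA and 0 in INS-MOCK, with a log2 fold change of 7.52 where Ifngr1 had 1.02. Its likeness to Ifngr1 thus rests on the added 1 CPM. The ligand genes, at 0 in INS-MOCK, are also flattened by it, so which genes are nearest to them depends on that 1 CPM. Ifnb1 was at least 70.0-fold higher in INS-SMA, whereas Ppp1r15a had a log2 fold change of only 3.27. Ifnl1 was at least 431-fold higher, whereas Atf3 had a log2 fold change of 5.90. Ly6g5b averaged only 0.485 CPM in INS-SMA and 0.476 CPM in INS-MOCK.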

How the data were processed

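The tools HISAT, HISAT2 and DESeq2 and the builds rn6 and hg19 are listed per the submitters' processing notes, with no roles. The sources used here do not give the counting program, its strand setting or the annotation. The authors deposited 1 table of raw counts per transcript row (101905 rows, 1 column per library). Of these, 66301 rows name no gene. They held 32.7% to 36.7% of a library's counts and entered neither library sizes nor tests. Counts were summed per gene identifier. The 13363 genes kept by filterByExpr were compared with edgeR 4.0.16 (glmQLFit, glmQLFTest, TMM factors, group as the only term) in R 4.3.3, with Benjamini-Hochberg adjustment over all tested genes and a threshold of 0.05. An SE is the log2 fold change divided by the square root of F. CPM are on TMM-scaled library sizes, where 3 counts are 0.117 to 0.180 CPM. The fit was tested on simulated data with 200 changed genes. Alternatives were DESeq2 1.42.0, other size factors, filters, library sizes and transcript rows, a replicate block, and leaving out each library. No library looked like a copy of another: within groups, chi-square divided by its degrees of freedom was 45.0 to 58.6 for each pair. Nothing says that the 3 cultures of a group were transduced separately, so p-values measure the spread between these cultures.

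Promoter windows were matched by symbol for all 9 genes in RefSeq tables of GRCr8. The members and gene lists were chosen with earlier results of these data known. The rule for named genes took all members, from each pathway list at least the 2 genes with the smallest adjusted p, for each member its nearest genes by pattern (3 for ligands, 1 for receptor chains), and neighbours within 50 kb. One gene of the list downstream of the receptors is not reported here, and that list's count is left out. For a symbol with several genes, the gene with most counts was taken.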

Additional observations from a re-analysis of the deposited data

How the results depend on the processing

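Of 137 values of single members under 15 alternatives and 1 more, chosen after seeing the data, 133 kept their direction and their side of the threshold. The last one tested Ifnl1 and Ifnl3 as 1 summed gene. The 137 values include 15 of Ifnb1, 16 of Ifnl1 and 16 of Ifnl3. With 0 counts in every INS-MOCK library the direction of these could not change, so they add nothing on stability. The exceptions were Ifnar1 without INS-MOCK replicate 1 or 2 (leaving out 1 library gave log2 fold changes of -0.37 to 0.0013), Ifngr2 (adjusted p = 0.0503) and Il10rb (0.257) as transcript rows by edgeR; why the rows differ from the sums was not tested. The number of members that passed, 7, was 7 to 8 with 1 library left out and 5 as transcript rows. In the main fit 55.1% of all tested genes passed. The 7 include the 3 ligand genes, which passed the low-count filter through INS-SMA alone. Of the 6 receptor chains, 2 rose and 2 fell. The number of all genes that passed, 7359, was 8300 with DESeq2 and 6771 to 7001 with 1 library left out. Of the interleukin-10 family list 2 genes passed, but 1 in the replicate block, 3 with DESeq2 and 1 to 2 with 1 library left out. Of 37 other pathway genes that passed, 31 did so with any 1 library left out. The 37 include Ikbke, Tlr3, Zbp1, Ifit2 and Mx1, which had 0 counts in every INS-MOCK library. The count for inhibitors of signalling (6) was 9 with DESeq2 and 4 in the replicate block. Same-numbered libraries did not deviate together (correlations -0.01, 0.0026 and -0.01), and neither did libraries of different numbers. These values show no pairing by number, but they cannot exclude one. With the replicate block 6294 genes and 7 members passed. Adding unnamed rows that overlap a member was not run, since those rows carry no coordinates. Counts of 0 in INS-MOCK put the ligand genes under 0.124 to 0.135 CPM there. This covers counting error in named rows only. A single library can lack a gene in such rows: Jak1 had 1027, 1331 and 0 counts in INS-MOCK replicates 1, 2 and 3. Isg20 had 0, 1200 and 1321 there.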
